A study of Mus musculus with 9 samples.

Results

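The genes described here encode the xenobiotic cytochrome P450 enzymes of families 1, 2 and 3 in mouse liver. They were chosen by symbol, as every gene ID in the deposited tables named Cyp1a, Cyp2a to Cyp2j or Cyp3a with a number, other than Cyp2c70, whose mean reached at least 10 normalised reads in a table. Of the 16521 IDs in the tables, 46 matched by symbol and 38 reached the minimum. The 38 members were 2 Cyp1a genes, 4 Cyp2a genes, 3 Cyp2b genes, 12 Cyp2c genes, 5 Cyp2d genes, 3 Cyp2j genes, 6 Cyp3a genes and 1 gene each of Cyp2e, Cyp2f and Cyp2g. Just inside the minimum were Cyp2b13, Cyp2b10 and Cyp3a57, with highest means of 10.6, 10.7 and 11.5 normalised reads. Just outside it were Cyp2d12, Cyp2d11 and Cyp2j8, at 7.70, 3.30 and 1.57 normalised reads, and the other 5 below the minimum (Cyp2d34, Cyp3a16, Cyp2c65, Cyp3a41b and Cyp2j11) had at most 1.21.

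Livers of C57BL/6 mice were profiled by RNA sequencing in 3 groups of 3 libraries each. The SAR group was fed the methionine- and choline-deficient (MCD) diet, which induces fatty liver, and was treated with a high dose of sarsasapogenin (SAR), a plant steroidal sapogenin. The model group was fed the MCD diet alone, and the normal group was given saline, with no such diet named for it. The labels give no sex, age, diet length, SAR dose in figures or vehicle for the model group, and do not say whether each library came from a separate animal, so p-values measure the spread between these libraries.

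Cytochrome P450 enzymes are heme proteins of the endoplasmic reticulum that oxidise drugs, toxins, steroids and fatty acids, with electrons passed on by the reductase Por. In liver they are made mostly by hepatocytes, many of them more strongly around the central vein, and several are made mainly by 1 sex in mice. Many are switched on through the receptors CAR (Nr1i3), PXR (Nr1i2) and AhR (Ahr), which sense foreign compounds and bile acids.

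The deposited tables hold group means, from which the reads of single libraries were recovered (see the processing notes). All 3 libraries were recovered for 36 members in every group, and Cyp2e1 and Cyp3a11 were recovered in the model group only. The libraries are called a, b and c within a group, and the letters stand for no replicate number in the labels. They were given by size factor within each group, so the same letter in different groups does not mark matched libraries. The model libraries held 12503819 to 14939063 reads, the 3 SAR libraries 36134679 to 37426223 in all and the 3 normal libraries 43076497 to 45989030 in all. Values below are normalised reads, that is reads divided by a size factor common to the 9 libraries, and values per kb are also divided by exon length. Library c stood apart in 2 groups. Over 12292 genes, model c correlated at 0.928 and 0.940 with model a and b, which correlated at 0.980 with each other. Normal c correlated at 0.934 and 0.925 with normal a and b, which correlated at 0.977. The 3 SAR libraries correlated at 0.962 to 0.970.

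On the MCD diet alone, more of these P450 genes were lower than higher against normal liver. Of 35 members tested with limma on log2(value + 1), 17 were lower in model livers at an adjusted p under 0.05, against 19.1% of all 12566 genes tested, and 4 were higher, against 20.0%. The 17 were 8 Cyp2c genes, 4 Cyp2d genes, 2 Cyp2j genes and 3 Cyp3a genes, and the 4 higher were Cyp2a4, Cyp2a22, Cyp2c55 and Cyp3a57. The median log2 fold change of the members was -1.18, beside 0.03 over all genes tested. In 17 members all 3 model libraries lay below all 3 normal libraries, against 26.5% of all genes. In the authors' deposited table, whose DESeq test covered all 38 members, 16 were lower at an adjusted p under 0.05, against 10.3% of all genes. Without model c and normal c, 25 of 33 members were lower and 5 higher, beside 3557 lower and 3783 higher of all 12650 genes.

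The filter on low values left out Cyp2g1 here, and Cyp2e1 and Cyp3a11 had no library values in normal liver. Another 7 tested members (Cyp2a4, Cyp2b10, Cyp2b13, Cyp2c55, Cyp2c69, Cyp3a44 and Cyp3a57) averaged under 10 in 1 of the 2 groups and passed only through the group in which they were high, so that a difference was built in. Of these, 3 were called higher and 1 lower, and among the other 28 members 1, Cyp2a22, was called higher and 16 lower. Of the 21 calls, 8 held in all 6 fits that each left out 1 library.

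SAR-treated livers had higher levels of most of these genes than model livers. Of 33 members tested, 20 were higher, against 13.2% of all 12470 genes, and 2, Cyp2a4 and Cyp3a57, were lower, against 16.2%. All 3 SAR libraries lay above all 3 model libraries in 20 members, against 20.9% of all genes, and the members' median log2 fold change was 1.49, beside 0.01 over all genes. The authors' deposited table called 22 of 38 members higher, against 6.79% of all genes. Of the 22 limma calls, 14 held in all 6 fits that left out 1 library, and without model c 24 members were higher and 1 lower of 31 tested, beside 2544 higher and 2616 lower of all 12466 genes. Cyp1a1, Cyp2b10 and Cyp2c69 were under the filter here, and 4 tested members (Cyp2b13, Cyp2g1, Cyp3a44 and Cyp3a57) passed it through 1 group only, with Cyp3a57 called among them.

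This comparison and that of model with normal livers share the 3 model libraries, so a model library that is low for a gene moves both. The 20 members called higher in SAR than in model livers were 8 Cyp2c genes, 4 Cyp2d genes, 2 Cyp2j genes, 3 Cyp3a genes, Cyp1a2, Cyp2a12 and Cyp2f2.

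**Figure D1:**
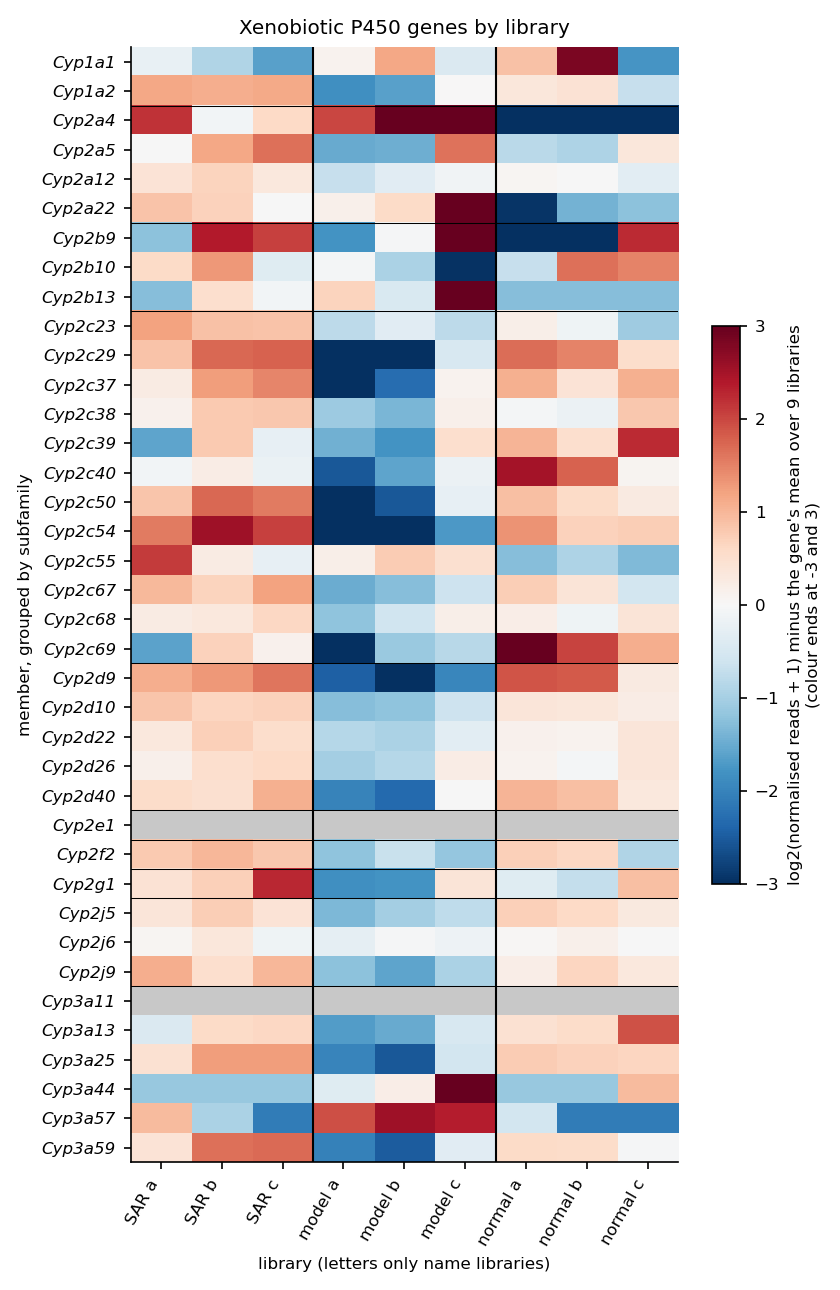
Levels of the 38 members (rows, by subfamily) in the 9 libraries (columns), as log2(normalised reads + 1) minus each gene's mean over the 9 libraries. Model libraries a and b are the lowest for most genes, model c is nearer to the SAR and normal libraries, and Cyp2e1 and Cyp3a11 (grey) have no library values outside the model group.

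Set against normal livers, few members were called in SAR livers. Cyp2e1 and Cyp3a11, with no library values in either group, were not tested. Of 33 tested, 2 were higher, Cyp2a4 and Cyp2a22, against 1.71% of all 11605 genes, and 0 were lower, against 1.84%. At an unadjusted p under 0.05 limma had 12 higher and 3 lower (Cyp2c39, Cyp2c40 and Cyp2c69), with no share of all genes at that p to set beside them. Limma voom called 1 member higher and 0 lower, beside 151 higher and 145 lower of all 11605 genes. The median log2 fold change of the members was 0.38, beside -0.0002 over all genes tested. Cyp1a1, Cyp2a4, Cyp2c55, Cyp2c69 and Cyp2g1 passed the filter through 1 group only. Neither call held in any fit that left out a SAR library, and without normal c the count was 9, with Cyp1a2, Cyp2a4, Cyp2a5, Cyp2a22, Cyp2b9 and Cyp2c23 higher and Cyp1a1, Cyp2c40 and Cyp2c69 lower. In that fit 539 of all 11581 genes were higher and 545 lower.

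**Figure D2:**
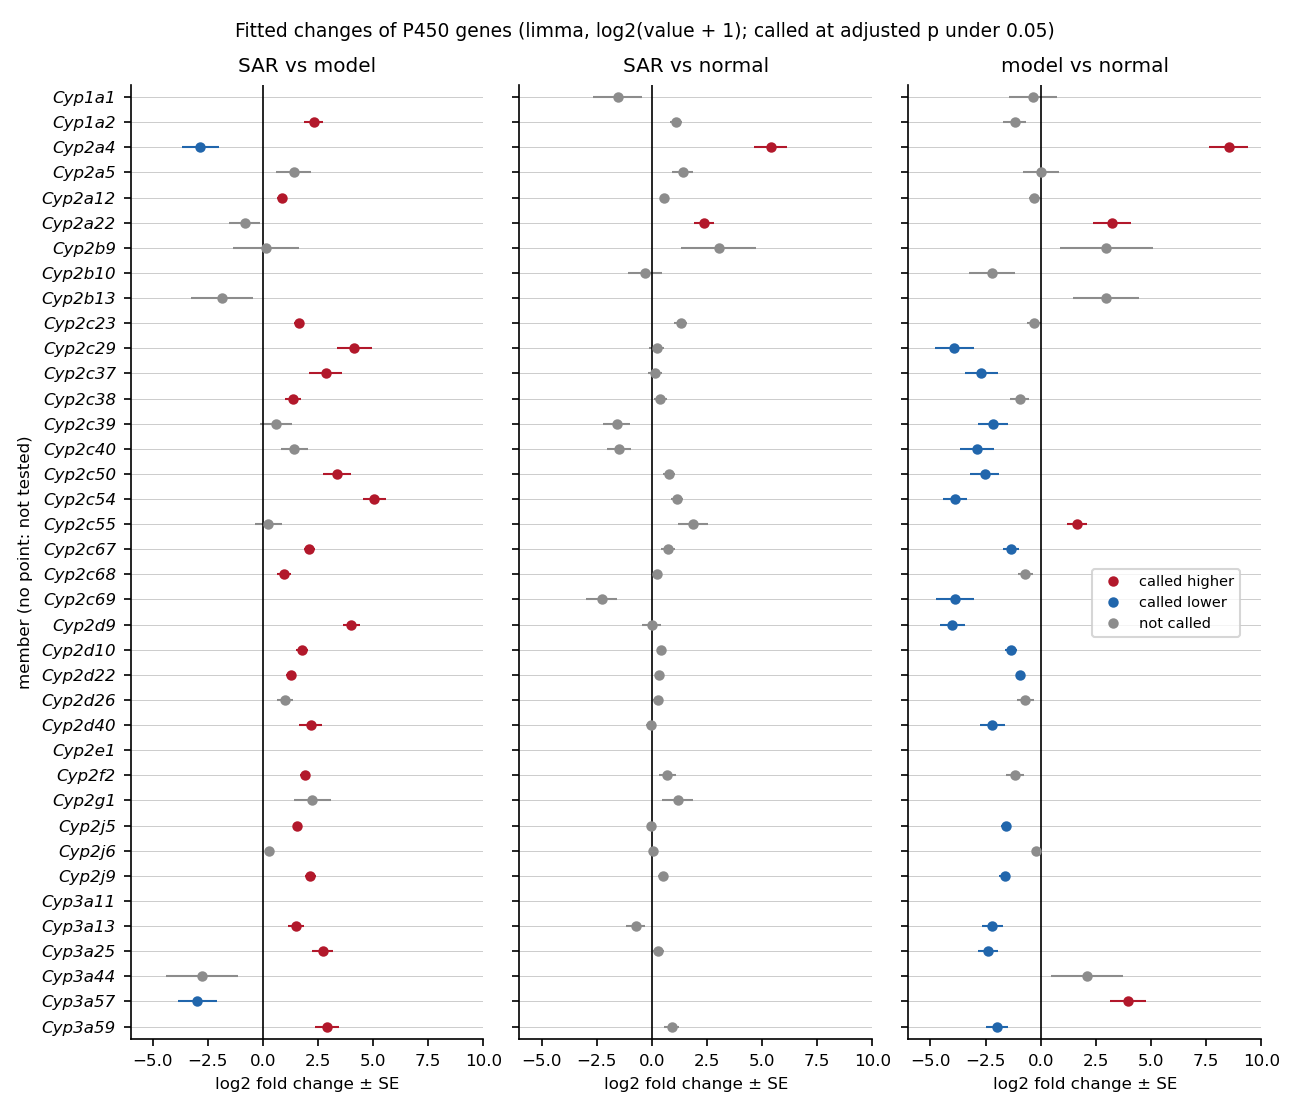
Log2 fold changes with their standard errors for each member in SAR against model, SAR against normal and model against normal livers, 3 libraries a group. Points are red or blue where limma called the gene higher or lower; 20 are red in the first panel, 2 in the second and 4 in the third.

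Cyp2e1 and Cyp3a11 were the 2 most abundant members per kb in each group. Cyp2e1, which oxidises ethanol and paracetamol, made up 39.6% of the members' summed reads per kb in SAR livers, 43.7% in model livers and 52.6% in normal livers. Cyp3a11, the main Cyp3a enzyme of mouse liver and a target of PXR, made up 25.2%, 13.7% and 9.49% in the same order of groups. The model shares differed by library, with Cyp2e1 at 24.0%, 21.5% and 55.7% and Cyp3a11 at 24.5%, 23.1% and 7.92% of the sum in model a, b and c. The summed level of all 38 members was between 248304 and 249104 normalised reads per kb in SAR livers, 61347 in model livers and between 176600 and 177055 in normal livers. The model mean covers sums of 32569 in library a, 34692 in b and 116779 in c. In whole liver, fewer hepatocytes and less of a message in each hepatocyte cannot be told apart.

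Cyp2e1 had between 180578 and 181477 normalised reads on average in SAR livers, and between 170893 and 171602 in normal livers. In model livers it had 14369 normalised reads in library a, 13698 in b and 119657 in c. Model c alone held 81.0% of the group's Cyp2e1 reads, so the model mean of 49241 describes none of the 3 libraries. In the authors' deposited table Cyp2e1 changed 3.74-fold between SAR and model livers (adjusted p = 0.0180) and 0.288-fold between model and normal livers (adjusted p = 0.00210). The SAR mean was 1.05 to 1.06 times the normal mean, with no test.

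Cyp3a11 behaved differently in the same libraries. It had 18719, 18762 and 21684 normalised reads in model libraries a, b and c, close to each other, with a mean of 19722 ± 1700 (SD, n = 3). The mean was between 146715 and 147446 in SAR livers and between 39298 and 39460 in normal livers, so SAR livers averaged 3.72 to 3.75 times the level of normal livers. The authors' deposited table gave a 7.56-fold higher level in SAR than in model livers (adjusted p = 3.84e-23), and 0.5001-fold in model against normal livers (adjusted p = 0.343). A test of SAR against normal livers was not possible for Cyp3a11, since its reads were not split by library in either group.

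The other Cyp3a genes were lower on the diet and higher with SAR, apart from 2 rare ones. Cyp3a25 had 9390, 16243 and 16354 normalised reads in SAR livers, 1712, 1163 and 4653 in model livers and 11501, 11036 and 10640 in normal livers. All 3 model libraries were below every library of the other groups, and SAR and normal livers overlapped. The log2 fold change was 2.71 ± 0.47 (SE; limma adjusted p = 0.00483) for SAR against model livers and -2.40 ± 0.47 (adjusted p = 0.00777) for model against normal livers. Cyp3a59, whose coding sequence is 97.5% identical to that of Cyp3a25, had 406, 956 and 988 normalised reads in SAR livers, 73.4, 52.7 and 241 in model livers and 450.3, 443.5 and 293 in normal livers. Its change was 2.90 ± 0.54 (SE; limma adjusted p = 0.00614) for SAR against model livers and -1.98 ± 0.52 (adjusted p = 0.0207) for model against normal livers, the second call lost without any of 4 libraries (adjusted p up to 0.0816). Without model c the changes were 3.54 and -2.63.

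Cyp3a13, a Cyp3a gene also found in intestine, had 2131, 4293 and 4496 normalised reads in SAR livers, 906, 1020 and 2091 in model livers and 3956, 4235 and 10944 in normal livers. Normal c was far above the other 2 normal libraries. Its log2 fold change was 1.49 ± 0.37 (SE; limma adjusted p = 0.0183) for SAR against model livers, lost without SAR b, SAR c, model a or model b (adjusted p up to 0.0788), and -2.19 ± 0.46 (adjusted p = 0.00983) for model against normal livers, which the authors' deposited table did not call (adjusted p = 0.0655).

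Cyp3a57 and Cyp3a44 had few reads, most of them in model livers. Cyp3a57 had 6, 1 and 0 reads in SAR livers, 21, 31 and 26 reads in model livers and 2, 0 and 0 reads in normal livers. It was higher in all 3 model libraries than in any other library, and limma called it lower in SAR than in model livers (adjusted p = 0.0354, lost without SAR b, SAR c or model a at up to 0.101) and higher in model than in normal livers (adjusted p = 0.00889). Cyp3a44, a female-biased gene whose coding sequence is 94.9% identical to that of Cyp3a11, had 0 reads in all 3 SAR libraries, 1, 2 and 85 reads in model livers and 0, 0 and 3 reads in normal livers. Nearly all of its reads (96.8% of the model sum) came from model c, and it was called in neither comparison tested.

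The promoter windows of Cyp3a11 (chr5:145879805-145880104, minus strand) and Cyp3a44 (chr5:145805825-145806124, minus strand) are shown because the pair is close in coding sequence and far apart in level. They are RefSeq sequences on GRCm38.p6, from 250 bases before to 50 bases after the annotated start. Capitals mark AGGTCA, the half-site that nuclear receptors bind, and TATAAA, letters found in TATA boxes, searched on both strands.
Cyp3a11: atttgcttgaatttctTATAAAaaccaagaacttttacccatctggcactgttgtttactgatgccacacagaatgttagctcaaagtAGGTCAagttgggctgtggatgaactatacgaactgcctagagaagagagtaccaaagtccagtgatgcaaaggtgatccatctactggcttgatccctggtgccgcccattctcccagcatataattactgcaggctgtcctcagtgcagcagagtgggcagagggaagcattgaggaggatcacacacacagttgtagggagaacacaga
Cyp3a44: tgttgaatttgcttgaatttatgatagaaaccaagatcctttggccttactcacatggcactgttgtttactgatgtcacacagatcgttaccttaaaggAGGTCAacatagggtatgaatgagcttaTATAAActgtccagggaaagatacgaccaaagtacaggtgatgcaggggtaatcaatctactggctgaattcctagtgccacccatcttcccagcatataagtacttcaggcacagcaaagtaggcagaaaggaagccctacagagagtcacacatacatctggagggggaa
Counted from 1 at the 5′ end, AGGTCA lies at bases 89 to 94 of the Cyp3a11 window and at bases 101 to 106 of the Cyp3a44 window. TATAAA lies at bases 17 to 22 of the first and at bases 129 to 134 of the second, in neither close to the annotated start as a TATA box would be. The windows differ by 89 single-base edits, an identity of 70.3%.

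Cyp2c was the largest subfamily, and 8 of its 12 genes were called lower in model than in normal livers. Its 12 genes, whose enzymes oxidise drugs, retinoids and arachidonic acid, summed to 19061, 27886 and 27186 normalised reads per kb in SAR livers, 2636, 3740 and 8306 in model livers and 19203, 14733 and 12965 in normal livers. All model libraries lay below all others. The mean was 24711 ± 4905 in SAR livers, 4894 ± 3006 in model livers and 15634 ± 3215 in normal livers (SD, n = 3 each), that is 5.05-fold for SAR over model and 0.313-fold for model over normal. Without model c the folds were 7.75 and 0.204. With all libraries the two-sided exact permutation p was 0.1 for each of these 2 pairs, the smallest that 3 libraries against 3 allow.

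Cyp2c54 had the largest rise of any member with SAR. It had 4959, 9715 and 6978 normalised reads in SAR livers, 94.3, 201.5 and 505 in model livers and 4257, 2690 and 2793 in normal livers. No library of 1 group overlapped those of another, with SAR highest and model lowest. On the log2 scale the change was 5.05 ± 0.52 (SE; limma adjusted p = 0.000752) for SAR against model, -3.90 ± 0.54 (adjusted p = 0.00267) for model against normal and 1.13 ± 0.28 (adjusted p = 0.0645, not called) for SAR against normal livers. The first was 5.66 without model c, and the second ranged from -3.31 without model a to -4.52 without model c.

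Cyp2c29, a known CAR target, had 3438, 6316 and 6525 normalised reads in SAR livers, 89.3, 212 and 1376 in model livers and 6115, 5333 and 2763 in normal livers. The model libraries were lowest, and SAR and normal livers overlapped. Its changes were 4.15 ± 0.81 (SE; limma adjusted p = 0.00740) for SAR against model and -3.91 ± 0.88 (adjusted p = 0.0127) for model against normal livers, the second lost without model b (adjusted p = 0.0510). Without model a they were 3.29 and -3.05, and without model c 5.25 and -5.02.

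Cyp2c50 was the most abundant Cyp2c gene per kb in every SAR and normal library and in model c, while Cyp2c23 was in model a and b. Cyp2c50 had 9072, 16691 and 14842 normalised reads in SAR livers, 596, 866 and 4292 in model livers and 9464, 7572 and 6145 in normal livers. Cyp2c37 had 2804, 5566 and 6508 normalised reads in SAR livers, 234, 479 and 2526 in model livers and 4896, 3138 and 4918 in normal livers. Both were lowest in model a and b, with model c below every SAR and normal library. The change for SAR against model livers was 3.35 ± 0.63 for Cyp2c50 (SE; limma adjusted p = 0.00653) and 2.85 ± 0.73 for Cyp2c37 (adjusted p = 0.0209), and for model against normal livers -2.54 ± 0.66 (adjusted p = 0.0205) and -2.69 ± 0.76 (adjusted p = 0.0272). The last 2 calls were each lost without any of 4 or more libraries, at adjusted p up to 0.0784 for Cyp2c50 and 0.0927 for Cyp2c37. The Cyp2c37 call for SAR against model livers was also lost without SAR b, SAR c, model a or model b (adjusted p up to 0.0794). Without model c the changes were 4.20 and -3.41 for Cyp2c50 and 3.81 and -3.66 for Cyp2c37, and without model a those of Cyp2c37 were 2.10 and -1.94. Cyp2c37, Cyp2c50 and Cyp2c54 are 95.1% to 96.1% identical in coding sequence.

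Cyp2c67 and Cyp2c23 were also higher in SAR than in model livers. Cyp2c67, with 4305, 3495 and 5109 normalised reads in SAR livers, 785, 910.4 and 1426 in model livers and 3679, 2912 and 1498 in normal livers, was higher in SAR than in model livers by 2.10 ± 0.25 (SE, log2; limma adjusted p = 0.00118). Its call lower in model than in normal livers was lost without any of 4 libraries (adjusted p up to 0.0910). Cyp2c23, an arachidonic acid epoxygenase, had 7852, 6231 and 6116 normalised reads in SAR livers, 1968, 2673 and 1982 in model livers and 3815, 3115 and 1626 in normal livers. All 3 SAR libraries lay above every other library, and model and normal livers overlapped. Cyp2c23 was higher in SAR than in model livers by 1.63 ± 0.21 (SE, log2; limma adjusted p = 0.00154) and by 1.32 ± 0.30 than in normal livers (adjusted p = 0.0527, not called).

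Cyp2c38 and Cyp2c68 were called higher in SAR than in model livers by 1.36 ± 0.37 and 0.97 ± 0.31 (SE, log2; limma adjusted p = 0.0246 and 0.0465), and both calls were lost without any of 4 or more libraries (adjusted p up to 0.0937 and 0.142). The Cyp2c68 call was also lost with voom, with upper quartile scaling and with no filter (adjusted p up to 0.0587). Cyp2c38 had 683, 1087 and 1090 normalised reads in SAR livers, 295, 242 and 695 in model livers and 600.1, 555 and 1092 in normal livers, so that model c lay above the lowest SAR library. Neither gene was called between model and normal livers.

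Cyp2c39, which oxidises retinoic acid, Cyp2c40 and Cyp2c69 had at most 213 normalised reads in any library and were called lower in model than in normal livers, with log2 fold changes of -2.17 ± 0.67, -2.90 ± 0.77 and -3.88 ± 0.87 (SE; limma adjusted p = 0.0373, 0.0217 and 0.0122). All 3 calls were lost without normal a (adjusted p up to 0.0830), those of Cyp2c39 and Cyp2c40 also without other libraries (up to 0.125 and 0.0798). Cyp2c40 was not called with voom (adjusted p = 0.0559), nor Cyp2c39 in the authors' deposited table (adjusted p = 0.129). Without model c the changes were -2.88 for Cyp2c39 and -3.54 for Cyp2c40, without normal c that of Cyp2c40 was -3.58, and without model a that of Cyp2c69 was -3.04.

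Cyp2c39 had 14.3, 77.5 and 37.2 normalised reads in SAR livers, 15.8, 12.2 and 63.8 in model livers and 92.2, 63.7 and 213 in normal livers. Cyp2c40 had 32.2, 39.9 and 29.5 normalised reads in SAR livers, 5.04, 10.7 and 30.3 in model livers and 198, 119 and 36.4 in normal livers. Model c of Cyp2c40 lay within the range of the SAR libraries and below every normal library. Cyp2c69 had 2.39, 15.7 and 10.3 normalised reads in SAR livers, 0, 3.82 and 4.78 in model livers and 82.6, 41.0 and 20.9 in normal livers, with all SAR and model libraries below all normal ones. Between SAR and model livers Cyp2c39 and Cyp2c40 were not called and Cyp2c69 was not tested.

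Cyp2c55 was the only Cyp2c gene called higher in model than in normal livers. It had 69.2, 18.2 and 12.8 normalised reads in SAR livers, 17.3, 26.7 and 21.5 in model livers and 5.76, 7.55 and 5.51 in normal livers. Every SAR and model library was above every normal library. The fitted log2 change for model against normal livers was 1.65 ± 0.46 (SE; limma adjusted p = 0.0264), lost without model a, model b or normal a (adjusted p up to 0.128) and in the authors' deposited table (adjusted p = 0.0791).

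**Figure D3:**
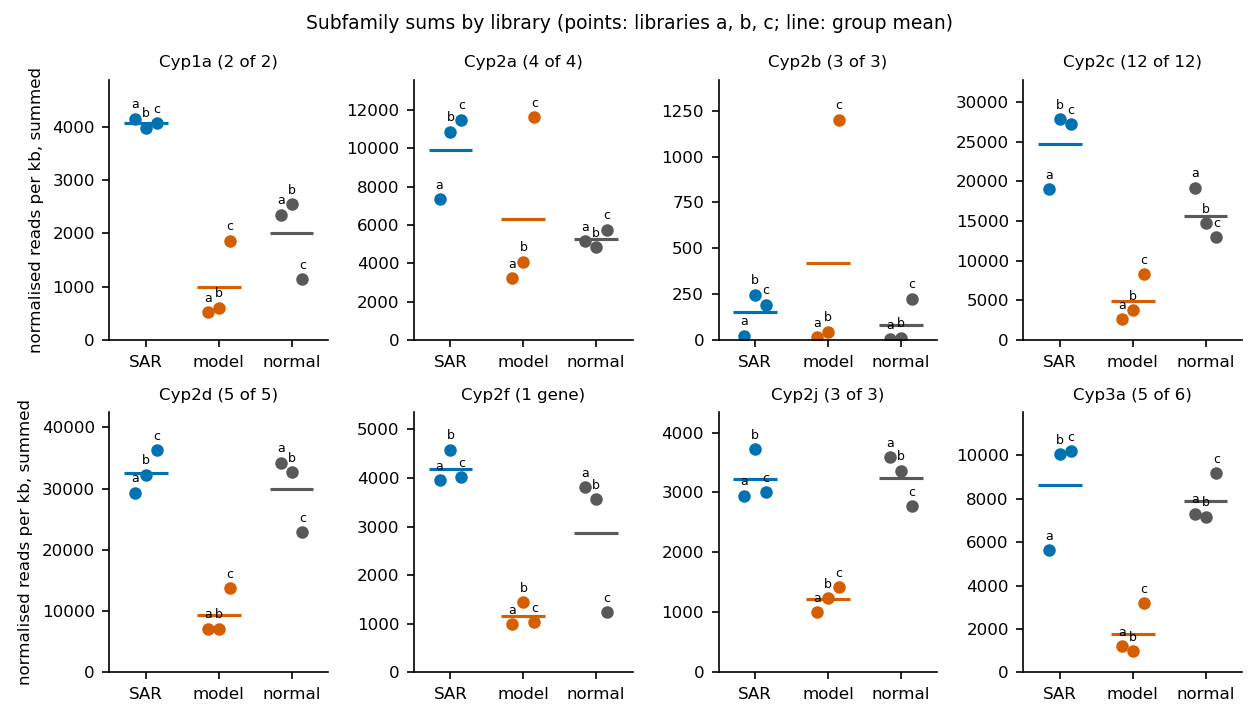
Summed normalised reads per kb of 8 subfamilies in each library (points a, b, c) with the group mean (line). The Cyp2c, Cyp2d, Cyp2j and Cyp3a sums (Cyp3a without Cyp3a11) are lowest in the 3 model libraries, while the Cyp2a and Cyp2b sums of model c, 11635 and 1200 per kb, are the highest of their panels.

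Cyp2d genes were lower on the diet in 4 of 5 members. The Cyp2d sum was 29348, 32268 and 36303 normalised reads per kb in SAR livers, 7143, 7117 and 13792 in model livers and 34241, 32682 and 22853 in normal livers. The mean was 3.49-fold for SAR over model (4.58-fold without model c) and 0.313-fold for model over normal, with the two-sided exact permutation p at 0.1, its smallest value, for both. For SAR over normal the sum was 1.09-fold (exact permutation p = 0.7).

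Cyp2d9, a testosterone 16-alpha-hydroxylase made mainly by male liver, was called in both comparisons with the model group. It had 17676, 20529 and 25619 normalised reads in SAR livers, 1541, 692 and 2149 in model livers and 31102, 29802 and 10142 in normal livers. Every model library was below every other library, and normal c was below the 3 SAR libraries while normal a and b were above them. The log2 fold change was 4.01 ± 0.39 (SE; limma adjusted p = 0.000534) for SAR against model livers and -4.00 ± 0.55 (adjusted p = 0.00266) for model against normal livers.

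Other male-biased liver genes were also higher in SAR than in model livers. Of 18 genes on that list, which includes Cyp2d9, 14 of 15 tested were higher in SAR than in model livers and 10 of 16 tested were lower in model than in normal livers. The sum of 15 of the 18, with Cyp2d9 among them, was 63510, 72611 and 71762 normalised reads in SAR livers, 10925, 10064 and 11074 in model livers and 101456, 97554 and 32080 in normal livers. Mup3, Mup20 and Serpina1e were not summed, since they had no library values in at least 1 group. Mup20 had 22745, 17666 and 14232 normalised reads in model livers and 37064, 56260 and 1045 in normal livers. Normal c was low for this sum, as for Cyp2d9, but not for every gene of the list. Egfr had 7174, 8023 and 10486 normalised reads in normal livers, and C8b had 4938, 4825 and 4665. The part of normal c in the comparison with normal livers was not tested. The steroid dehydrogenase Hsd3b5 had 202, 346 and 185 normalised reads in SAR livers, 0, 0 and 0.797 in model livers and 99.9, 74.4 and 2.21 in normal livers.

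The other Cyp2d genes changed less. Cyp2d10 had 15972, 13993 and 14608 normalised reads in SAR livers, 3719, 3921 and 5838 in model livers and 11503, 11455 and 10503 in normal livers, with no overlap between groups. It was higher in SAR than in model livers and lower in model than in normal livers, with log2 fold changes of 1.77 ± 0.26 and -1.34 ± 0.26 (SE; limma adjusted p = 0.00235 and 0.00756), the second lost without model b (adjusted p = 0.0502). Cyp2d22, the nearest mouse counterpart of human CYP2D6, had 3871, 5160 and 4502 normalised reads in SAR livers, 1716, 1609 and 2504 in model livers and 3418, 3356 and 4046 in normal livers. The model libraries were lowest. It was higher in SAR than in model and lower in model than in normal livers, with log2 fold changes of 1.25 ± 0.22 and -0.92 ± 0.21 (SE; limma adjusted p = 0.00505 and 0.0141), the second lost without model a or model b (adjusted p up to 0.0700).

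Cyp2d40 had 609, 577 and 862 normalised reads in SAR livers, 102, 81.7 and 409 in model livers and 834, 774 and 516 in normal livers. All model libraries lay below all others. Its log2 fold change was 2.17 ± 0.51 (SE; limma adjusted p = 0.0151) for SAR against model and -2.19 ± 0.56 (adjusted p = 0.0189) for model against normal livers, the first lost without SAR c, model a or model b and the second without any of 4 libraries (adjusted p up to 0.0586 and 0.0773). Without model c they were 2.88 and -2.91.

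Cyp2d26 was called in no comparison. It had 12598, 16025 and 17183 normalised reads in SAR livers, 5575, 6259 and 13155 in model livers and 12142, 10959 and 14707 in normal livers. Model a and b were below all others, and model c lay within the range of the normal libraries. Without model c, limma called it lower in model than in normal livers (adjusted p = 0.00895) and higher in SAR than in model livers (adjusted p = 0.00132).

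Cyp1a2, the constitutive liver enzyme of the AhR-regulated family 1, was higher with SAR. It had 8045, 7716 and 7878 normalised reads in SAR livers, 1009, 1159 and 3607 in model livers and 4549, 4882 and 2220 in normal livers. All SAR libraries lay above all others, and model c lay above normal c. Fitted by limma, the log2 change was 2.30 ± 0.42 (SE; limma adjusted p = 0.00578) for SAR against model, -1.18 ± 0.52 (adjusted p = 0.103, not called) for model against normal and 1.10 ± 0.29 (adjusted p = 0.0689, not called) for SAR against normal livers. Without normal c, the last was called (adjusted p = 0.0210).

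Cyp1a1, the inducible member of that family, stayed rare. It had 7, 4 and 2 reads in SAR livers, 15, 31 and 9 reads in model livers and 20, 71 and 2 reads in normal livers. The normal libraries alone spanned the range of all 9, and no comparison tested called it.

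Cyp2f2 and 2 of the 3 Cyp2j genes were higher in SAR than in model livers. Cyp2f2, which oxidises naphthalene and is made by periportal hepatocytes, had 7386, 8545 and 7487 normalised reads in SAR livers, 1860, 2698 and 1937 in model livers and 7100, 6643 and 2308 in normal livers. Normal c lay among the model libraries. Cyp2f2 was higher in SAR than in model livers by 1.89 ± 0.21 (SE, log2; limma adjusted p = 0.00103) and was not called lower in model than in normal livers (-1.16 ± 0.43, adjusted p = 0.0629), which it was without normal c (adjusted p = 0.00246).

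Cyp2j5, an arachidonic acid epoxygenase, had 6063, 7843 and 6289 normalised reads in SAR livers, 1852, 2334 and 2781 in model livers and 7716, 7073 and 5784 in normal livers. SAR and normal livers overlapped and every model library was lower. Its log2 fold change was 1.56 ± 0.22 (SE; limma adjusted p = 0.00205) for SAR against model and -1.57 ± 0.23 (adjusted p = 0.00300) for model against normal livers. Cyp2j9 had 248, 166 and 233 normalised reads in SAR livers, 49.0, 38.2 and 59.0 in model livers and 133, 180.2 and 144 in normal livers, and its log2 fold changes were 2.15 ± 0.25 and -1.64 ± 0.24 (SE; limma adjusted p = 0.00109 and 0.00323). Cyp2j6, with 763 to 1059 normalised reads in SAR livers, 693 to 811 in model livers and 830.1 to 924 in normal livers, was called in neither, at 0.27 ± 0.16 and -0.21 ± 0.13 (SE, log2; limma adjusted p = 0.242 and 0.219).

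Cyp2g1, an olfactory enzyme that is rare in liver, had 9, 11 and 32 reads in SAR livers, 2, 2 and 13 in model livers and 6, 4 and 14 in normal livers, and was not called.

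The Cyp2a subfamily held 2 of the 4 members called higher in model than in normal livers. Cyp2a4, a testosterone 15-alpha-hydroxylase with higher levels in female than in male liver, had 120, 24 and 37 reads in SAR livers, 177, 505 and 2025 reads in model livers and 0, 1 and 0 reads in normal livers. On the normalised scale that is 143, 29.05 and 47.5 in SAR livers, 127, 385 and 1614 in model livers and 0, 1.08 and 0 in normal livers. Every library on the MCD diet was above every normal library, and SAR a lay within the range of the model libraries. On the log2(value + 1) scale the fitted change was -2.84 ± 0.85 (SE; limma adjusted p = 0.0351) for SAR against model, 5.38 ± 0.77 (adjusted p = 0.0255) for SAR against normal and 8.52 ± 0.88 (adjusted p = 0.00124) for model against normal livers; the last 2 depend on the added 1, since the normal group held 1 read. With an added 10 they were 2.60 and 5.57. With voom none of the 3 was called (adjusted p = 0.119, 0.0716 and 0.155), and the authors' deposited table did not call the first (adjusted p = 0.321) but called the last (adjusted p = 0.00555). The first was also lost without SAR b, SAR c or model b (adjusted p up to 0.130) and was -3.48, -3.71 and -1.89 without SAR a, model a and model c. The second was lost without any of 5 libraries (adjusted p up to 0.0912) and was 4.75 without SAR a, and the last was 9.40 without model a and 7.57 without model c.

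Cyp2a5, a coumarin hydroxylase, is 98.5% identical to Cyp2a4 in coding sequence and did not share its pattern. It had 4267, 9562 and 13469 normalised reads in SAR livers, 1500, 1549 and 13263 in model livers and 2439, 2245 and 5419 in normal livers. Model a and b were the lowest of the 9 libraries and model c was above all but SAR c, so the groups overlapped and no comparison was called. The fitted change between model and normal livers was 0.02 ± 0.82 (SE, log2; limma adjusted p = 0.989), and without model c and normal c it was -0.62 (adjusted p = 0.00165). How the authors' counting shared reads between so close a pair is not given in the sources used here, which touches every value of Cyp2a4.

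The promoter windows of Cyp2a4 (chr7:26306942-26307241, plus strand) and Cyp2a5 (chr7:26835089-26835388, plus strand) are printed because the 2 genes differ in these livers and hardly in sequence. Build, window and capitals are as for the Cyp3a pair, and TGACCT is AGGTCA read on the other strand.
Cyp2a4: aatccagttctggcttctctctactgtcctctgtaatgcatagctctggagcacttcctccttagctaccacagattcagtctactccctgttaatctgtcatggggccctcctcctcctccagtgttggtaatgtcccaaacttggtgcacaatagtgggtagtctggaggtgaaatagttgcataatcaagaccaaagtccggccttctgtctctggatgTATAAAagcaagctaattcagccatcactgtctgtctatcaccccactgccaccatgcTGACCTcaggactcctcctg
Cyp2a5: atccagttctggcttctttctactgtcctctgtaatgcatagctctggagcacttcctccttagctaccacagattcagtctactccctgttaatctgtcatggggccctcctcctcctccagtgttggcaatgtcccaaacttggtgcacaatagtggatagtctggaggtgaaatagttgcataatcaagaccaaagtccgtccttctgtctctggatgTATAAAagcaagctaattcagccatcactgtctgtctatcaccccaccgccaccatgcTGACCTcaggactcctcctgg
The windows differ by 7 single-base edits, an identity of 97.7%. TATAAA lies at bases 223 to 228 of the Cyp2a4 window and at bases 222 to 227 of the Cyp2a5 window. TGACCT lies at bases 281 to 286 of the first and 280 to 285 of the second, after the annotated start and just behind an ATG.

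Of the 38 members, 34 had a RefSeq promoter window, 36 windows in all. AGGTCA, on either strand, was in 15 of the 36 windows (41.7%), beside 16.3% of all 32851 windows of this length, and TATAAA was in 21 (58.3%), beside 13.6%. The 15 include the windows of Cyp2a4 and Cyp2a5, where the match lies after the annotated start. GCGTG, the core that AhR binds, was in 4 windows (11.1%), beside 32.4% of all, among them that of Cyp1a1. TTCNNNGAA, a STAT motif, was in 0 of the 36 windows and in 8.30% of all. Members of a subfamily share ancestry and sequence, so these windows are not independent, and a match is a description of letters only.

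Cyp2a12 and Cyp2a22, which are 97.0% identical in coding sequence, also differed. Cyp2a12 had 8483, 10079 and 7918 normalised reads in SAR livers, 3953, 5036 and 5850 in model livers and 6619, 6252 and 5096 in normal livers. It was higher in SAR than in model livers by 0.87 ± 0.24 (SE, log2; limma adjusted p = 0.0270), lost without any of 5 libraries (adjusted p up to 0.107), and was not called between model and normal livers. Cyp2a22 had 202, 179 and 109 normalised reads in SAR livers, 123, 165 and 1146 in model livers and 13.4, 41.0 and 46.3 in normal livers. Every SAR and model library was above every normal library. Its change was 3.23 ± 0.85 (SE, log2; limma adjusted p = 0.0209) for model against normal livers and 2.37 ± 0.47 (adjusted p = 0.0386) for SAR against normal livers. The first was lost without normal a (adjusted p = 0.0702), with voom (adjusted p = 0.130) and in the authors' deposited table (adjusted p = 0.253), and was 3.84 without model a and 2.23 without model c. The second was lost without any of 5 libraries and in 1 fit over all 9 libraries (adjusted p = 0.0896).

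Cyp2b9 and Cyp2b13 were highest in model c. Cyp2b9, which is higher in female liver, had 35.8, 444 and 355 normalised reads in SAR livers, 23.8, 82.4 and 2198 in model livers and 6.72, 2.16 and 402 in normal livers. Model c and normal c were each far above the other 2 libraries of their group, and all 3 groups overlapped. Cyp2b13 had 0, 2 and 1 reads in SAR livers, 4, 1 and 67 reads in model livers and 0 reads in each normal library. Neither gene was called in a comparison with all libraries, and without normal c Cyp2b9 was called higher in model than in normal livers (adjusted p = 0.0450, limma). Cyp2b10, the classical CAR target, had 9, 15 and 4 reads in SAR livers, 9, 4 and 0 in model livers and 4, 22 and 19 in normal livers, and was not called.

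**Figure D4:**
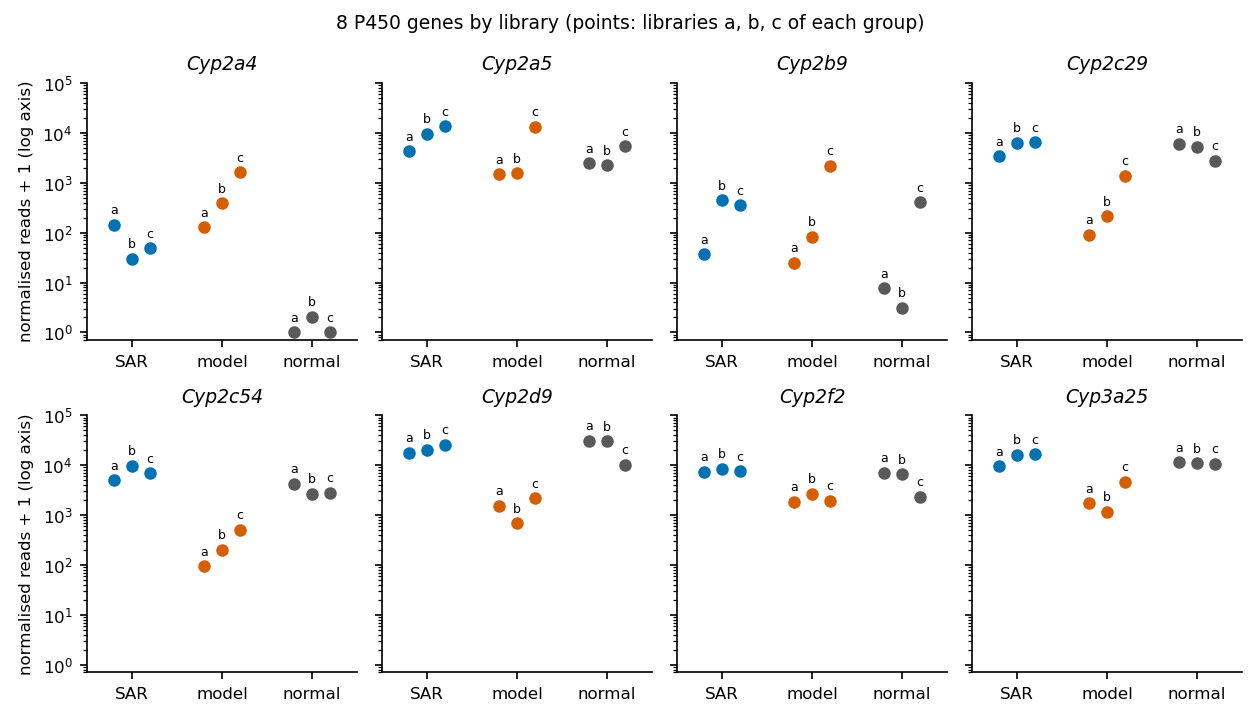
Normalised reads + 1 (log axis) of 8 members in each library, with the libraries of the SAR, model and normal groups marked a, b and c. Cyp2a4 is at 0 to 1.08 normalised reads in the normal libraries, Cyp2b9 is high in model c and normal c, and Cyp2c54 shows 3 separate groups.

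The 3 model libraries were far from alike for these genes. In 22 of the 38 members model c was over 2-fold above the mean of model a and b, against 4.32% of 12292 genes. In 2 members it was over 2-fold below, against 7.73% of those genes. These 2 were Cyp1a1 and Cyp2b10, with at most 31 reads in any model library. The median log2 difference of model c from a and b was 1.26 over the members and -0.01 over all genes. It was 5.34 for Cyp2b9, 3.18 for Cyp2c29, 3.12 for Cyp2a5, 3.09 for Cyp2e1 and 2.82 for Cyp2c37. It was 0.38 for Cyp2a12, 0.21 for Cyp3a11, -0.01 for Cyp2j6, -0.23 for Cyp2c23 and -0.23 for the periportal gene Cyp2f2.

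Genes of the central vein outside the P450 family were also high in model c. Their summed level (14 of 16 genes) was 30397, 37822 and 36232 normalised reads in SAR livers, 10890, 12746 and 32044 in model livers and 29014, 26588 and 20302 in normal livers. Glutamine synthetase, Glul, which is confined to hepatocytes next to the central vein, had 17839, 19685 and 24656 normalised reads in SAR livers and 4760, 4185 and 24502 in model livers. The portal list (9 of 14 genes) did not split the model libraries in this way, at 38407, 58182 and 46899 in SAR livers, 19331, 26519 and 24891 in model livers and 47798, 45297 and 50094 in normal livers. The part of the central vein genes in the P450 values of model c was not tested.

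**Figure D5:**
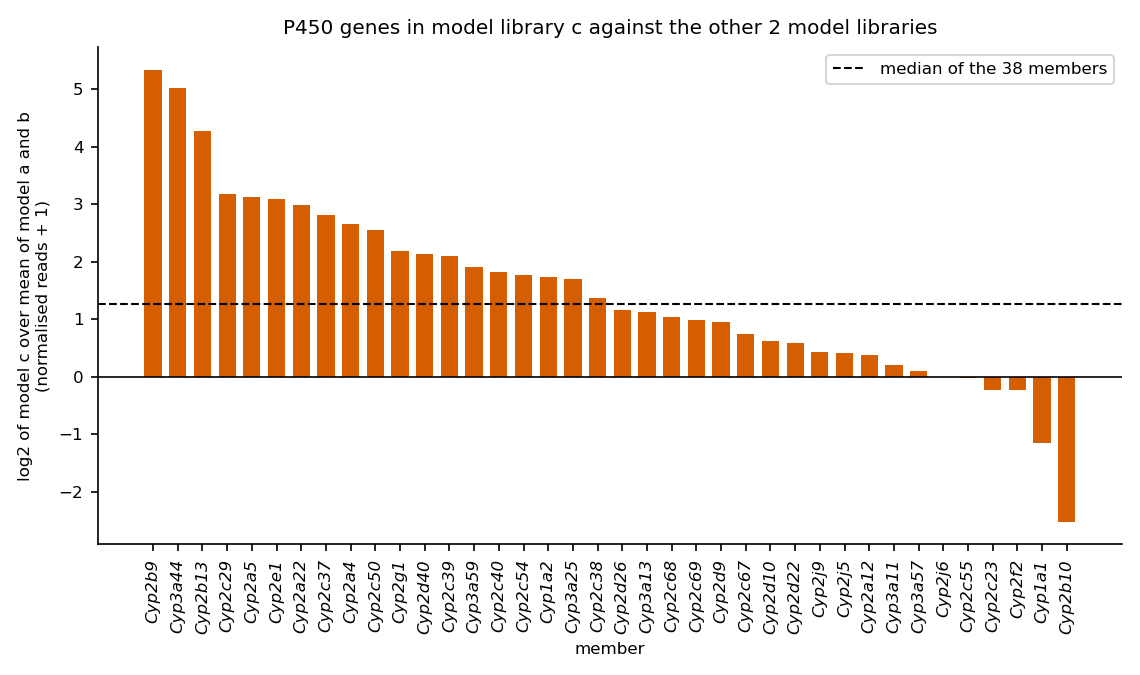
Log2 of model library c over the mean of model libraries a and b for each member, on normalised reads + 1, with the members' median of 1.26 as a dashed line. 22 of the 38 members stand over 2-fold higher in model c, while Cyp3a11, Cyp2j6, Cyp2c23 and Cyp2f2 stand near or below 0.

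Receptors and partner factors that drive these genes changed in part. Of 19 tested, 10 were higher and 1, Arnt, was lower in SAR than in model livers, and 9 were lower in model than in normal livers. CAR (Nr1i3) had 295, 431 and 521 normalised reads in SAR livers, 54.7, 37.4 and 363 in model livers and 363, 413 and 425.5 in normal livers. Model c lay near the normal libraries and model a and b far below. Cyp2e1, which has no values for single normal libraries, was also far lower in model a and b than in model c. Cyp2b10, the classical CAR target, had 9, 4 and 0 reads in model a, b and c. The part of CAR in the levels of either gene was not tested. CAR was higher in SAR than in model livers by 2.16 ± 0.70 (SE, log2; limma adjusted p = 0.0468) and was not called between model and normal livers (adjusted p = 0.0537).

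PXR (Nr1i2) had 1778, 1961 and 1805 normalised reads in SAR livers, 898.5, 1051 and 1836 in model livers and 1511, 1459 and 1090 in normal livers, and was called in no comparison. AhR (Ahr) had 630, 749 and 614 normalised reads in SAR livers, 340.5, 388 and 406 in model livers and 496, 442 and 747 in normal livers, and was higher in SAR than in model livers by 0.83 ± 0.15 (SE, log2; limma adjusted p = 0.00574). SHP (Nr0b2), a repressor downstream of the bile acid receptor, had 1384, 1517 and 1338 normalised reads in SAR livers, 378, 653 and 625 in model livers and 575, 239.5 and 414.5 in normal livers. It was higher in SAR livers than in model livers by 1.41 ± 0.22 and than in normal livers by 1.87 ± 0.28 (SE, log2; limma adjusted p = 0.00298 and 0.0256).

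Of 15 genes for electron supply and heme, 5 were higher and 1 lower in SAR than in model livers, and 5 were lower and 1 higher in model than in normal livers. Por, the reductase that serves all of these P450 enzymes, had 5363, 9446 and 13208 normalised reads in SAR livers, 2170, 2257 and 9004 in model livers and 11578, 10558 and 12811 in normal livers. It was lower in model than in normal livers, by a log2 change fitted at -1.72 ± 0.53 (SE; limma adjusted p = 0.0366), and was not called between SAR and model livers (adjusted p = 0.0978). Heme oxygenase Hmox1, which breaks heme down, was the gene called in the opposite direction, lower in SAR than in model livers and higher in model than in normal livers, with log2 fold changes of -1.81 ± 0.24 and 1.54 ± 0.24 (SE; limma adjusted p = 0.00175 and 0.00379).

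Markers of hepatocytes and of other cells moved as well. The authors' deposited tables called 12 of 15 hepatocyte genes higher in SAR than in model livers and 9 lower in model than in normal livers, with a median fold of 2.08 and 0.554. The 10 genes of stellate cells and fibroblasts summed to 4397 to 7723 normalised reads in SAR livers, 13113 to 31334 in model livers and 1442 to 4850 in normal livers. The 15 macrophage genes summed to 6790 to 9459 in SAR livers, 22586 to 28185 in model livers and 6406 to 9709 in normal livers. They did not all move 1 way: 9 were called higher and 3, Clec4f, Vsig4 and Timd4, lower in model than in normal livers. Between SAR and model livers 10 were called lower and 0 higher. The 9 cholangiocyte genes summed to 771 to 1702 normalised reads in SAR livers, 2019 to 10961 in model livers, with model c the lowest, and 468 to 864 in normal livers. The 12 neutrophil genes summed to 1450 to 2173 normalised reads in SAR livers and 10077 to 13975 in model livers. In normal livers they summed to 209 to 49039, the highest being normal c. Lcn2 alone had 9177, 8353 and 11033 normalised reads in model a, b and c and 41037 in normal c. Of 11 neutrophil genes tested, 1 was called higher in model than in normal livers, and 9 lower in SAR than in model livers. Of 8 T and NK cell genes, 7 were called higher in model than in normal livers, and 3 lower in SAR than in model livers. Among 7 endothelial genes, 3 were called lower in model than in normal livers, and 2 lower in SAR than in model livers. No gene of these lists was at 0 in all 9 libraries, and the part of these cells in the P450 values was not tested.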

How the data were processed

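RNA of 9 liver samples was sequenced. The 2 deposited tables hold group means, of the model and normal groups in 1 table and of the model and SAR groups in the other. The means are a signal of reads divided by a DESeq size factor, and the fold, log2 fold change and p-value columns come from the authors' DESeq test, per the file headers. Per the submitters' processing notes, mm9 was used. Which aligner, counter and strand setting were used is not given in the sources used here.

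Each deposited mean has 15 significant digits and is a sum of whole reads over 3 size factors. These sums were solved for the reads of each library. A single solution was found for 16230 of 16294 genes in SAR livers, for all 16521 in model livers and for 16285 of 16374 in normal livers, so that 16424 genes had reads for all 9 libraries. Those left unsolved were abundant genes, with means of at least 29150 in SAR and 16084 in normal livers. The model reads solved from either table alone were identical for 15982 of 15982 genes, and 0 of 2000 means that had been shifted on purpose had a solution, against 2000 of 2000 unshifted ones. Within each group the letters were given in order of falling size factor, so that library a has the highest and library c the lowest. They match no replicate number, and a letter shared between groups does not pair libraries. There were 0 columns of single samples left unused.

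Genes with a mean of at least 10 over the libraries compared were tested with limma 3.58.1 (limma-trend) on log2(value + 1), with Benjamini-Hochberg adjustment over all genes. Model and normal or SAR and model libraries were scaled with the authors' size factors, and SAR and normal libraries with median-of-ratios factors. Both this fit and the solving of reads were tested on simulated data. Sums were compared with two-sided exact permutation tests. Coding sequences come from GENCODE M21 and were compared with edlib, and symbols from a table of gene IDs.

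The members and gene lists were chosen with earlier results of these data known. The text accounts for every member and gives library values for the highest member of each subfamily, the 6 largest called rises and falls of a comparison, a fixed list of well known members and any member called in opposite directions. Alternatives were a pseudocount of 10, no filter, upper quartile scaling, voom, a joint fit, leaving out libraries, the authors' DESeq calls and member minimums of 100 and 1. Intervals on Cyp2e1 and Cyp3a11 means cover the unsolved reads only.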

Additional observations from a re-analysis of the deposited data

How the results depend on the processing

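With 3 libraries a group, counts of calls moved most when a library was left out. Over the 6 such fits of each comparison, calls among all genes ranged from 2429 to 5783 for model against normal (4909 with all libraries), 1544 to 5160 for SAR against model (3663) and 6 to 1084 for SAR against normal livers (412), and calls among the P450 members from 9 to 24 (21), 14 to 25 (22) and 0 to 9 (2). Without normal c and model c together, SAR against normal livers gave 1084 genes and 9 members, and voom gave 1 member. Without model c, a choice made after seeing the data, the SAR over model fold was 7.75 for the Cyp2c sum (5.05 with all libraries) and 4.58 for the Cyp2d sum (3.49). Some log2 fold changes that were not called changed sign. Without normal c and model c that was -0.62 for Cyp2a5 (model against normal, now called), 0.16 for Cyp2a22 (SAR against model), and 0.020 for Cyp2b10 and -0.13 for Cyp2c29 (SAR against normal). In the authors' deposited table Cyp2b9 was at -1.44 for SAR against model. For SAR against normal, Cyp2d9 was at 0.0011 with voom and 0.023 with upper quartile scaling, and Cyp2j5 at 0.0026 with that scaling. With a library left out, the range was -1.58 to 0.74 for Cyp1a1 and -1.03 to 0.55 for Cyp2a5 (model against normal). It was -1.44 to 0.16 for Cyp2a22, -1.23 to 2.0 for Cyp2b9 and -0.45 to 0.72 for Cyp2c55 (SAR against model). For SAR against normal it was -1.06 to 0.11 for Cyp2b10, -0.13 to 0.52 for Cyp2c29, -0.10 to 0.51 for Cyp2c37, -0.53 to 0.27 for Cyp2d9, -0.26 to 0.086 for Cyp2d40, -0.15 to 0.063 for Cyp2j5 and -0.093 to 0.15 for Cyp2j6. The cause of these changes was not tested, beyond the smaller number of libraries. Of 1257 values of single members under the alternatives, 1087 kept direction and side of the threshold, 40 gained a call, 93 lost it and 37 changed sign. No paired analysis was possible because the solved libraries carry no replicate number. Read totals of the SAR and normal groups are known only as ranges, and members with a few reads per library are limited by counting.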
